A study of Bos taurus with 60 samples.

Results

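The miR-26 family was followed in liver small RNA of 60 beef steers through the 3 mature miRNAs of that name, bta-miR-26a, bta-miR-26b and bta-miR-26c, out of 1030 mature miRNAs in the count files. The members were taken by name, a rule that uses no measured value, though earlier results of these data were known when it was set. A miRNA that has several precursors was given the mean of its counts. Both bta-miR-26a and bta-miR-26b passed the filter on low counts in every comparison, whereas bta-miR-26c had no read in any steer. The steers were 20 Angus, 20 Charolais and 20 Kinsella Composite (KC, a crossbred beef line), with 1 library each. Residual feed intake (RFI) is the feed an animal eats beyond what its growth and size predict, so a low value means high feed efficiency. The labels gave 6 low-RFI and 6 high-RFI steers in each breed, and 8 steers per breed without an RFI group. All had received the same finishing diet of barley grain, barley silage and rumensin pellets, and all samples were liver. Breed went with age at slaughter, Charolais being oldest and KC youngest, so the breed comparisons cannot tell breed from age, and many steers shared a sire within their breed.

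The miR-26 miRNAs are encoded in introns of the CTDSP genes, which specify small phosphatases that act on the C-terminal domain of RNA polymerase II, and they are made together with their hosts. They are among the best known brakes on cell division in liver, where they repress EZH2, the histone methyltransferase of the Polycomb complex, and cyclins and CDK6 of the G1 phase. In mouse liver miR-26a has also been tied to insulin sensitivity and to the metabolism of glucose and lipids.

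The mature sequences of both detected members are shown because they explain how far reads of one can be told from reads of the other. They are taken from the list of expressed miRNAs published with the data, and capitals mark the seed, bases 2 to 8, which pairs with targets.
bta-miR-26a: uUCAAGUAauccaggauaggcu
bta-miR-26b: uUCAAGUAauucaggauagguu
The seeds were the same, and the 22 bases differed at 2 positions, C11U and C21U, counted from 1 at the 5′ end and going from bta-miR-26a to bta-miR-26b. Among the 588 miRNAs with a sequence in that list, no further one carried the seed, and no other lay within 3 mismatches of a member. In the RefSeq annotation of the ARS-UCD2.0 assembly, MIR26B (85 bases) lies within CTDSP1 on chromosome 2, MIR26A-2 (84 bases) within CTDSP2 on chromosome 5, and MIR26A-1 (90 bases) within CTDSPL on chromosome 22. MIR26C is annotated there at the same 90 bases as MIR26A-1. The counts themselves were made on another assembly, UMD3.1, so no coordinates are given.

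Angus libraries held 1930859 to 5703119 averaged counts. Totals were higher in Charolais, at 2237959 to 6019099, and highest in KC, at 3637007 to 6759381, so breed and depth were partly mixed. Levels are given in CPM, edgeR's counts relative to the library total, scaled by TMM (trimmed mean of M-values), which corrects each library for its composition. For 57 libraries the TMM factor lay between 0.904 and 1.17. The other 3, all from steers without an RFI group, had factors of 0.677 (Angus replicate 3), 0.684 (Charolais replicate 7) and 0.795 (KC replicate 2). In them 20, 37 and 7 of the 443 miRNAs lay over 3 within-breed SD from the breed mean, against a median of 1 in the 57, although 1 of the 57 reached 25. The RFI comparisons do not include these libraries, and results of the 60 steers are given with and without them. The hepatocyte markers bta-miR-192 and bta-miR-122 were abundant, with geometric means over the steers of 232877 and 7948 CPM. The hepatocyte marker bta-miR-885 was far lower, at 35.5 CPM. In bulk tissue, fewer cells of a type and less RNA per cell cannot be told apart.

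bta-miR-26a was among the most abundant miRNAs of the liver in every steer. It made up 4.96% ± 0.522 (SD, n = 60) of the counts, with a lowest value of 4.03% and a highest of 6.88%, and ranked 5 in all steers but 1, where it ranked 6. bta-miR-26b made up 0.767% ± 0.118 (SD, n = 60) and ranked between 14 and 23. The members together held 5.73% ± 0.553 (SD, n = 60) of a library.

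The files list bta-miR-26a 2 times, with an entry for each precursor, and the entries were almost the same number in each steer. The mean count was 222298 for bta-mir-26a-1 and 222495 for bta-mir-26a-2. The latter was higher in all 60 steers, by 75 to 333 reads, or 0.418 to 1.14 per 1000. Both entries have the same mature sequence, and the contributions of the loci cannot be told apart from these counts. Adding the entries instead of averaging them raised bta-miR-26a to rank 3 to 5 and doubled its ratio to bta-miR-26b by construction.

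bta-miR-26c had 0 counts in each of the 60 steers, among 266627000 counts in all. Taking 3 counts as the limit that a count of 0 allows, its level was at most 0.0113 CPM over all libraries and at most 0.444 to 1.55 CPM in single libraries, as far as counting error goes. It was 1 of 218 miRNAs (21.2% of 1030) that had no count anywhere.

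Within each breed, the first question was whether the family differed between efficient and inefficient steers. In Angus, bta-miR-26a had a lowest value of 42678 CPM, a median of 47777 and a highest of 52442 in low-RFI steers, and 46466, 48300 and 51819 CPM in high-RFI steers. In Charolais, low-RFI steers had 43909, 48412 and 53290 CPM, and high-RFI steers 44688, 49967 and 71332 CPM. In KC, the values were 44503, 48586 and 51204 CPM in low-RFI steers, and 45489, 49640 and 57414 CPM in high-RFI steers. The RFI groups overlapped in all 3 breeds, and with TMM the medians of low-RFI steers lay slightly below those of high-RFI steers in each. This order depended on the scaling. With library totals in place of TMM, the low-RFI median was still below the high-RFI median in Angus (48494 against 49219 CPM). It was above it in Charolais (49786 against 49154 CPM) and in KC (50149 against 48975.5 CPM). The Charolais maximum came from 1 steer that stood far above the rest of its group.

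The less abundant member overlapped in the same way. bta-miR-26b had lowest, median and highest values of 6299, 7631 and 8296 CPM in low-RFI and 6679, 7312 and 9344 CPM in high-RFI Angus steers. In Charolais they were 6836, 7805 and 9918 CPM in low-RFI steers and 6691, 7436 and 9194 CPM in high-RFI steers. In KC they were 7054, 7500 and 8678 CPM in low-RFI steers and 6654, 8035 and 10311 CPM in high-RFI steers. The order of the medians thus differed between breeds, with low-RFI steers above high-RFI steers in Angus and Charolais and below them in KC.

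**Figure D1:**
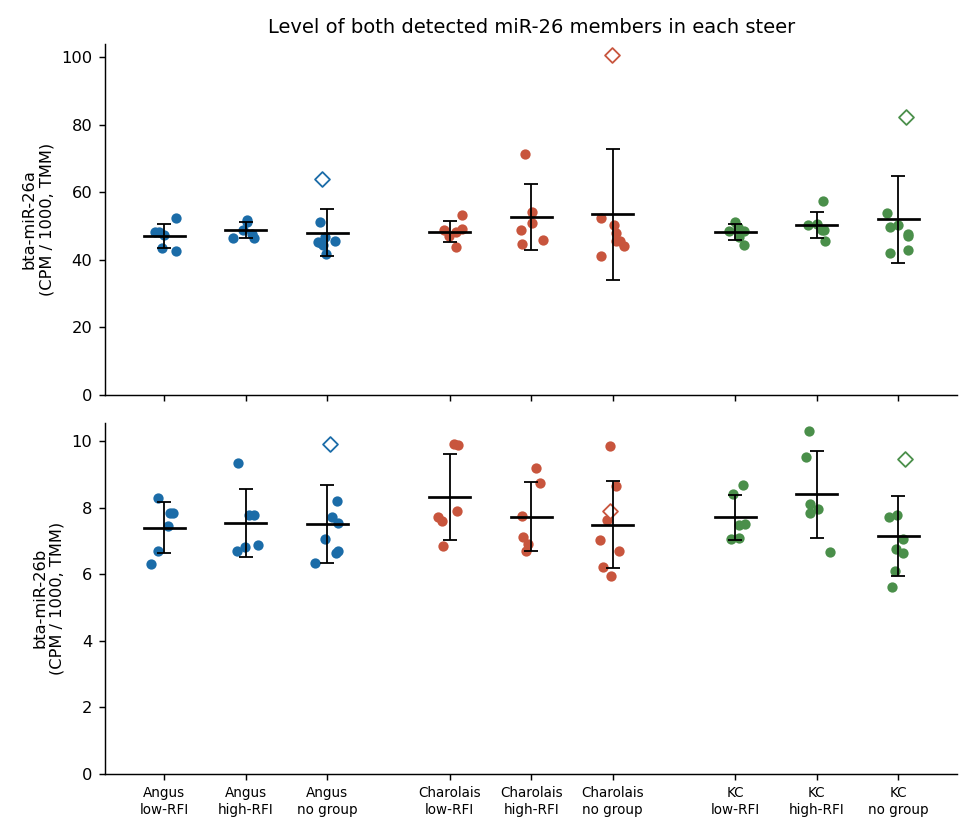
Level of bta-miR-26a (top) and bta-miR-26b (bottom) in CPM divided by 1000, with TMM scaling. Each point is a steer, lines and bars show the mean and SD of a group (6 steers per RFI group, 8 without one), and open diamonds are the 3 libraries with a TMM factor under 0.8. RFI groups overlap in each breed, and bta-miR-26a is highest, at 100539 CPM, in a Charolais steer without an RFI group.

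Neither member passed the test of low-RFI against high-RFI steers in any breed. For bta-miR-26a, the log2 fold change was -0.02 (SE 0.06, 95% confidence interval -0.15 to 0.12) in Angus, with an adjusted p = 0.992 in edgeR's quasi-likelihood test. It was -0.11 (SE 0.11, interval -0.33 to 0.11, edgeR adjusted p = 0.987) in Charolais and -0.03 (SE 0.06, interval -0.15 to 0.09, edgeR adjusted p = 0.995) in KC. The intervals exclude a fall below 0.899-fold or a rise above 1.09-fold in Angus, and below 0.900-fold or above 1.06-fold in KC, and are wider in Charolais, from 0.794-fold to 1.08-fold. Without the Charolais high-RFI steer at 71332 CPM the estimate was -0.013, and without the KC high-RFI steer at 57414 CPM it was 0.0079.

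For bta-miR-26b the log2 fold changes were 0.01 (SE 0.09, interval -0.19 to 0.21) in Angus, 0.12 (SE 0.12, interval -0.15 to 0.38) in Charolais and -0.09 (SE 0.09, interval -0.30 to 0.11) in KC, with edgeR adjusted p-values of 0.993, 0.987 and 0.995. Its sign in Angus turned with several settings of the analysis. With sire as a block, the Charolais estimates were -0.27 for bta-miR-26a and 0.42 for bta-miR-26b. Only 1 Charolais sire had steers in both RFI groups, 1 low-RFI and 4 high-RFI. These estimates thus rest on 1 low-RFI steer, whose bta-miR-26b was at 9918 CPM, the highest of the breed. Without this block, no other miRNA passed the test of low-RFI against high-RFI steers either. In each of the 3 breeds 0 of the miRNAs tested (0%) were called by edgeR, where 373 Angus, 373 Charolais and 385 KC miRNAs were tested, while 14, 19 and 14 had an unadjusted p under 0.05. DESeq2 called 0, 0 and 1, the last being bta-miR-190a, named after its values were seen.

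Over the 36 steers of the 3 breeds, with breed as a term, bta-miR-26a was 0.945-fold in low-RFI relative to high-RFI steers, a log2 fold change of -0.08 (SE 0.04, interval -0.17 to 0.01). Its unadjusted p was 0.0678, place 20 among 426 miRNAs, and its edgeR adjusted p was 0.956. The estimate depended on the scaling, and the 5 other settings run gave -0.082 to -0.019, the latter with library totals in place of TMM. bta-miR-26b had a log2 fold change of -0.02 (SE 0.06, interval -0.15 to 0.11, edgeR adjusted p = 0.978). The interaction of RFI group and breed, which asks whether the RFI difference itself varied between breeds, gave an edgeR adjusted p = 0.994 for both members. In each of these fits 0 of 426 miRNAs (0%) were called by edgeR, with 13 and 16 at an unadjusted p under 0.05; DESeq2 was not run on them.

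Between breeds no difference in the level of a member passed the test, and the intervals were narrow. bta-miR-26a had a lowest value, median and highest value of 41655, 47006 and 63879 CPM in Angus, 41232, 48412 and 100539 CPM in Charolais and 41850, 48837 and 82381 CPM in KC. bta-miR-26b had 6299, 7487 and 9922 CPM in Angus, 5943, 7677 and 9918 CPM in Charolais and 5611, 7616 and 10311 CPM in KC. The breeds overlapped over nearly their whole range, and each breed's maximum of bta-miR-26a belonged to 1 of the 3 libraries with a low TMM factor.

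The edgeR fit of 60 steers gave an adjusted p = 0.498 for bta-miR-26a and 0.791 for bta-miR-26b in the test of any breed difference, in which 75 of 443 miRNAs (16.9%) were called. For bta-miR-26a the log2 fold change was 0.11 (SE 0.07, interval -0.03 to 0.25) in Charolais against Angus, 0.07 (SE 0.07, interval -0.07 to 0.21) in KC against Angus and -0.04 (SE 0.07, interval -0.18 to 0.10) in KC against Charolais. For bta-miR-26b it was 0.06, 0.04 and -0.02 in the same order, each with an SE of 0.07. No pair of breeds passed the test for either member, the smallest edgeR adjusted p being 0.421, in comparisons where 1.35%, 11.7% and 16.5% of miRNAs were called. Differences above 1.19-fold or below 0.882-fold lie outside all 3 intervals of bta-miR-26a. Without the 3 libraries its estimates were 0.07, 0.05 and -0.02.

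**Figure D2:**
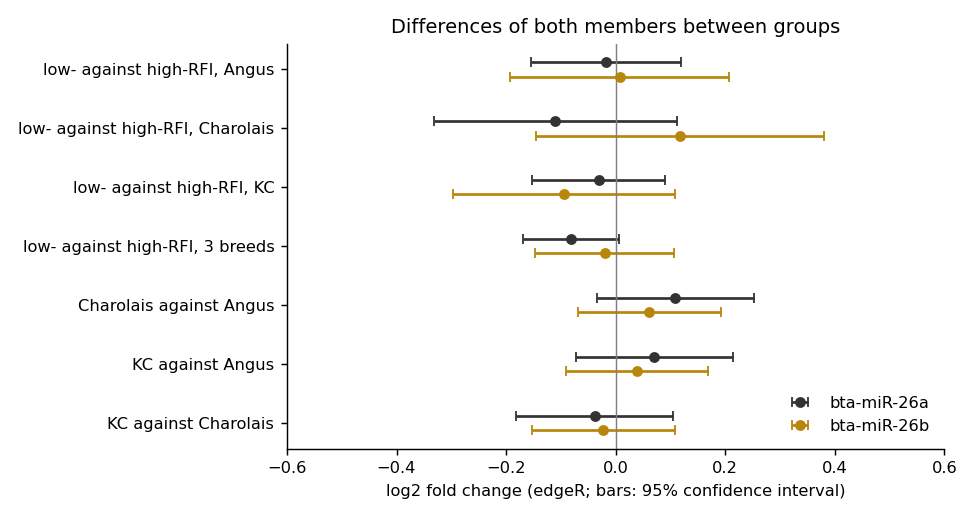
Log2 fold changes of both members in 7 comparisons, with 95% confidence intervals from edgeR's quasi-likelihood fits (6 against 6 steers within a breed, 36 steers over the 3 breeds, 20 steers per breed). Every interval includes 0, and the widest belong to the Charolais RFI comparison.

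Angus libraries gave the family 5.56% ± 0.387 (SD, n = 20) of their counts. Its share was 5.81% ± 0.707 (SD, n = 20) among Charolais steers and 5.80% ± 0.508 (SD, n = 20) among KC steers. Charolais lay 0.248 percentage points above Angus (95% confidence interval -0.116 to 0.613) and KC 0.241 points above Angus (interval -0.0476 to 0.530). KC and Charolais differed by -0.0071 points (interval -0.401 to 0.387). Two-sided permutation tests with 100000 resamples, adjusted over the 3 pairs, gave p = 0.272, 0.272 and 0.971.

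The ratio of bta-miR-26a to bta-miR-26b within a library needs no scaling between libraries. Angus steers had 6.46 ± 0.666 (SD, n = 20). The mean was 6.73 ± 1.77 (SD, n = 20) among Charolais and 6.61 ± 0.877 (SD, n = 20) among KC steers. On the log2 scale the breeds differed by 0.03 or less, with permutation p-values of 0.997 after adjustment over the 3 pairs. The 95% confidence interval was -0.14 to 0.19 for Charolais against Angus, -0.08 to 0.14 for KC against Angus and -0.17 to 0.17 for KC against Charolais.

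Between RFI groups the log2 ratio differed by -0.03 (interval -0.24 to 0.18) in Angus, by -0.21 (interval -0.52 to 0.10) in Charolais and by 0.06 (interval -0.18 to 0.29) in KC. Exact two-sided permutation tests over all relabelings of the 12 steers gave p = 0.773, 0.188 and 0.602, or 0.773, 0.565 and 0.773 adjusted over the 3 breeds. The smallest p these tests can give is 0.00216. In Charolais, 1 of 6 low-RFI steers lay above the high-RFI median of the ratio. The groups overlapped there, with ratios of 4.43 to 7.12 in low-RFI and 5.55 to 9.19 in high-RFI steers.

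How constant the members were between steers depended on the scaling. With TMM, the within-breed SD was 0.22 for bta-miR-26a and 0.21 for bta-miR-26b on the log2 scale, against a median of 0.45 over the 443 miRNAs, most of which are far less abundant. Against the 50 most abundant miRNAs, whose median SD was 0.20, the members took places 29 and 27 from the least variable. Scaled by library totals alone, the SD of bta-miR-26a was 0.14, place 4 of 443, and that of bta-miR-26b was 0.22, place 44. Without the 3 libraries with a low TMM factor and with TMM, the SD of bta-miR-26a was 0.13, place 14, and that of bta-miR-26b was 0.20, place 64. In those libraries bta-miR-26a made up 4.32% (Angus), 6.88% (Charolais) and 6.55% (KC) of the counts, so that the Angus value stood out only after TMM scaling.

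**Figure D3:**
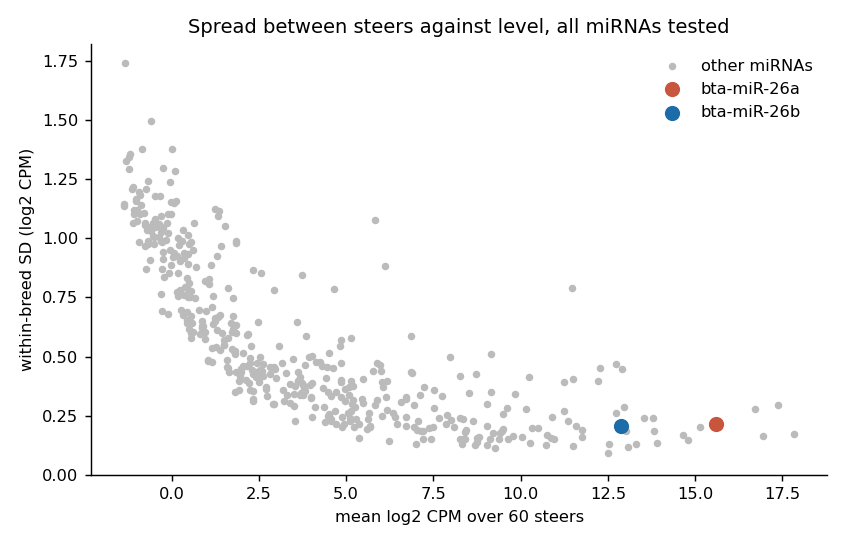
Within-breed SD of log2 CPM (TMM) against mean log2 CPM over 60 steers for 443 miRNAs, each a point, with bta-miR-26a and bta-miR-26b in colour. The members lie among abundant miRNAs of low spread, at SDs of 0.22 and 0.21.

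The levels of both members were weakly correlated between steers. Across the 60 steers, with each breed centred on its mean, Pearson's r of log2 CPM was 0.37 (permutation p = 0.00484, adjusted over 4 relations 0.0125) and Spearman's rho was 0.41 (permutation p = 0.00167, adjusted 0.00668). For Angus, Charolais and KC alone Pearson's r was 0.55, 0.17 and 0.58, with adjusted permutation p-values of 0.0166, 0.484 and 0.0125. Spearman's rho was 0.37, 0.37 and 0.40, each with an adjusted permutation p of 0.108. Leaving out the 2 steers farthest from the median of bta-miR-26a gave a pooled r of 0.42 over 58 steers. Within breeds it gave 0.13 in Angus, 0.40 in Charolais and 0.42 in KC over 18 steers each, so the Angus value rested on 2 steers. Without the 3 libraries with a low factor the pooled r was 0.35, and with library totals alone it was 0.19 (permutation p = 0.192), where rho was 0.47. Values of both miRNAs from 1 library share its scaling factor.

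**Figure D4:**
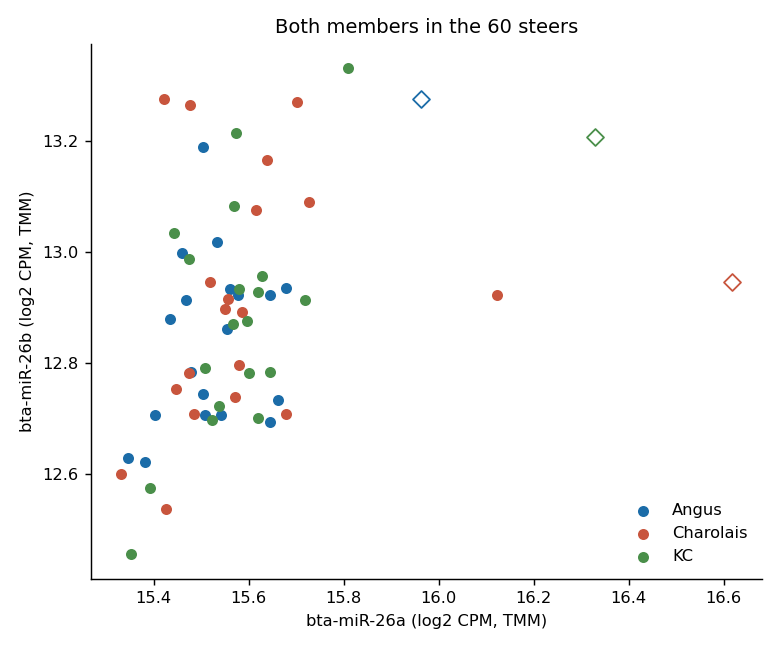
log2 CPM (TMM) of bta-miR-26b against that of bta-miR-26a, each point a steer coloured by breed, with open diamonds for the 3 libraries with a TMM factor under 0.8. The points form a loose cloud, r = 0.37 over 60 steers after centring breeds, with 4 steers to the right of it.

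The ratio of the members went with the library total. Over 60 steers, with breeds centred, Pearson's r of the log2 ratio with the log2 library total was 0.40 (permutation p = 0.00231, adjusted over 3 relations 0.00346) and Spearman's rho was 0.35 (permutation p = 0.00618, adjusted 0.00927). Angus, Charolais and KC alone gave an r of 0.33, 0.55 and 0.22, and none of these passed the threshold after adjustment over 9 relations, the smallest adjusted permutation p being 0.142. Without the 2 steers farthest from the median total r was 0.37, and without the 3 libraries it was 0.33. With TMM scaling, bta-miR-26a correlated with the library total at r = 0.44 (permutation p = 0.0012, adjusted 0.00346) and rho = 0.46, while bta-miR-26b had r = 0.0048 (permutation p = 0.970) and rho = 0.0019. Without the 2 farthest steers the former was 0.45 and the latter 0.044. Scaled by library totals alone these were 0.27 and -0.25.

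**Figure D5:**
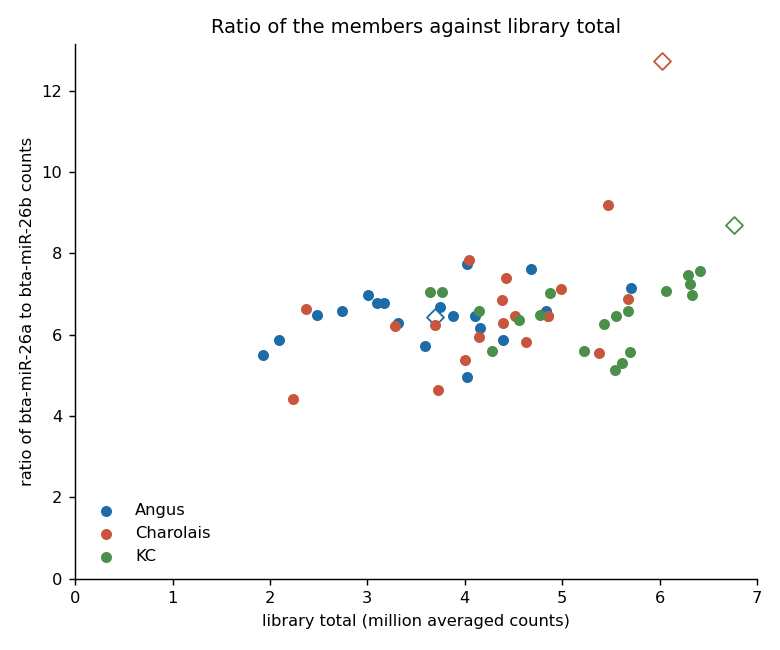
Ratio of bta-miR-26a to bta-miR-26b counts against the library total, each point a steer coloured by breed and open diamonds the 3 libraries with a TMM factor under 0.8. Most ratios lie near the median of 6.48, and the highest, 12.7, comes from a Charolais library of 6019099 counts.

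Half-sibs did not stand out from other steers of their breed beyond the tests' threshold. Differences between sires took up 15.1% of the sum of squares of bta-miR-26a in Angus (5 sires, 18 steers), 25.7% in Charolais (5 sires, 20 steers) and 0.209% in KC (2 sires, 11 steers). For bta-miR-26b they took up 31.6%, 32.2% and 0.365%, and for the log2 ratio 25.2%, 16.1% and 2.40%. Permutation p-values, exact in KC, were all above the threshold, the smallest being 0.187 before and 0.865 after adjustment over 9 tests. A family of 8 Charolais half-sibs spanned 43909 to 71332 CPM of bta-miR-26a and ratios of 4.43 to 9.19.

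The miRNAs whose pattern was most like that of bta-miR-26a over the 60 steers, by Pearson's r of breed-centred log2 CPM, were bta-miR-10a (0.81), bta-miR-24-3p (0.75), bta-miR-191 (0.75), bta-miR-23b-3p (0.75) and bta-miR-10174-3p (0.73). bta-miR-26b took only place 43 of 442. These values rested partly on the 3 libraries with a low factor, without which they were 0.56, 0.42, 0.43, 0.49 and 0.46, with bta-miR-10a still at place 1. Scaled by library totals alone, bta-miR-7 took place 1 (0.62), bta-miR-10a place 2 (0.56) and bta-miR-191 place 10 (0.38). The neighbours of bta-miR-26b were bta-miR-2284x (0.51), bta-miR-126-5p (0.50), bta-miR-185 (0.47), bta-miR-27b (0.45) and bta-let-7f (0.44), and bta-miR-26a took place 12. Without the 3 libraries they were 0.43, 0.50, 0.53, 0.38 and 0.34. With library totals alone bta-miR-126-3p came first for bta-miR-26b (0.62), and bta-miR-26a fell to place 165 (0.19). The members thus had no neighbour in common among their first 5. The points share library, depth and scaling, and the values are descriptions.

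Markers of liver cell types are given beside the members. Within the stellate, hepatocyte and biliary epithelial lists they did not all go the same way with bta-miR-26a. Of the stellate and mesenchymal list, all 5 miRNAs were measured, and their summed level ran from 116177 to 303178 CPM in Angus, from 135449 to 377112 in Charolais and from 122831 to 257519 in KC, most of it bta-miR-143. The 3 libraries with a low factor had 303178 (Angus), 377112 (Charolais) and 250691 CPM (KC), against breed medians of 166383, 174330 and 170184. bta-miR-143 had r = 0.66 with bta-miR-26a over 60 steers and 0.28 over the other 57, and bta-miR-145 had 0.38 and 0.33. The remaining 3 of the list, bta-miR-199a-5p, bta-miR-199a-3p and bta-miR-214, had 0.07, -0.10 and 0.13 over 60 steers and 0.25, -0.06 and 0.13 over 57. Both endothelial markers were measured, with summed levels of 13829 to 20831 CPM over the breeds. bta-miR-126-5p, made in endothelial cells, had r = 0.50 with bta-miR-26b both over 60 and over 57 steers, and its partner strand bta-miR-126-3p had 0.39 and 0.52. The 3 hepatocyte markers differed in sign with bta-miR-26a, at r = -0.52 for bta-miR-885, 0.43 for bta-miR-122 and 0.20 for bta-miR-192 over 60 steers, and -0.25, 0.01 and 0.10 over 57. Over 60 steers, bta-miR-26a had r = 0.39, 0.32 and 0.12 with the erythroid bta-miR-486, bta-miR-451 and bta-miR-144. Over 57 steers these were 0.25, 0.41 and 0.18. Its r with the 5 leukocyte markers ran from -0.35 (bta-miR-150) to -0.0051 (bta-miR-155) over 60 steers. Over 57 it ran from -0.12 (bta-miR-150) to 0.04 (bta-miR-142-5p). With the 5 biliary epithelial markers, r of bta-miR-26a ran from -0.42 (bta-miR-200a) to 0.12 (bta-miR-141) over 60 steers. Over 57 steers the same 2 markers were again lowest and highest, at -0.19 and 0.21. The muscle markers bta-miR-1 and bta-miR-133a had 0.18 and 0.17 over 60 steers, and -0.22 and 0.20 over 57. The part of these cell types in the levels of the members was not tested.

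Other miRNAs that act on the same targets were described as lists, without a test of the list. Of 12 other miRNAs known to target EZH2, all were tested between breeds and 7 were called in the test of any breed difference, against 16.9% of all 443. In KC against Charolais, where 16.5% of all 443 were called (32 lower and 41 higher), 6 of 12 were lower and 0 higher, with a list median log2 fold change of -0.12 against 0.01 over all miRNAs, and in KC against Angus, where 11.7% were called (20 lower and 32 higher), 4 were lower and 0 higher, with a median of -0.15 against 0.01. In Charolais against Angus, where only 1.35% of all 443 were called, 0 of the 12 were called by edgeR, and the median was 0.04 against -0.02. All 7 belonged to the let-7 family, which restrains cell proliferation and makes up most of the list. Those outside that family, bta-miR-101, bta-miR-138 and bta-miR-214, were called in no breed comparison. bta-let-7f had log2 fold changes of -0.32 in KC against Angus and -0.22 in KC against Charolais (edgeR adjusted p = 8.16e-06 and 0.00282). bta-let-7e had -0.17 and -0.24 (edgeR adjusted p = 0.0170 and 0.000187). bta-let-7c had -0.23 and bta-let-7i -0.25 in KC against Charolais (edgeR adjusted p = 0.00153 and 0.00235). let-7 members are near-identical in sequence, so reads may be shared among them. The members of the miR-26 family, which target the same gene, had -0.04 and -0.02 in that comparison.

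Of 12 other miRNAs known to repress G1 cyclins and CDK6, 11 were tested and 0 were called by edgeR in the test of any breed difference, against 16.9% of all miRNAs, with 2 at an unadjusted p under 0.05, bta-miR-449a and bta-miR-34c. In KC against Charolais, where 16.5% of all miRNAs were called, 1 of the 11 was, bta-miR-449a, at a log2 fold change of 1.01 (edgeR adjusted p = 0.0378) from a geometric mean of 2.38 CPM over all steers. The list medians were -0.01, 0.08 and 0.07 in Charolais against Angus, KC against Angus and KC against Charolais, against -0.02, 0.01 and 0.01 over all miRNAs. Of 17 miRNAs of hepatic insulin, lipid and cholesterol metabolism, 16 were tested and 1 was called in the test of any breed difference, against 16.9% of all miRNAs. It was bta-miR-122, a hepatocyte marker (edgeR adjusted p = 0.0497). Its log2 fold changes of 0.29 in Charolais against Angus and 0.20 in KC against Angus did not pass singly. In KC against Angus and in KC against Charolais 1 of the 16 was called each, against 11.7% and 16.5% of all miRNAs. bta-miR-107, which acts on insulin signalling through caveolin, was lower in KC than in Angus by -0.12 on the log2 scale (edgeR adjusted p = 0.0473). bta-miR-21-5p had a log2 fold change of -0.21 in KC against Charolais (edgeR adjusted p = 0.0485), while bta-miR-33b, a regulator of cholesterol export, passed in no breed comparison. The medians of this list were 0.01, 0.05 and 0.01 in the same order. Between RFI groups no miRNA of the 3 lists was called by edgeR, in fits where 0% of all miRNAs tested were called.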

How the data were processed

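Small RNA libraries (Illumina TruSeq) from liver of 60 steers were sequenced, 1 per steer. Per the submitters' processing notes, bcl2fastq 2.17.1.14, FastQC 0.11.7, cutadapt 1.16 and Bowtie 1.1.1 were used with genome build UMD3.1. The authors trimmed reads, removed other small RNAs, counted reads per pair of mature miRNA and precursor with miRDeep2, and deposited raw counts without normalization. There are 1155 pairs per Angus or Charolais steer and 1207 per KC steer, the 52 further ones involving no member. A read that fits several precursors can be counted for each, so the counts of a mature miRNA were averaged over its precursors and rounded for the fits.

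Steers were grouped by the labels' breed and RFI group. edgeR 4.0.16 (limma 3.58.1, R 4.3.3) was used with TMM factors and the quasi-likelihood F test over every miRNA that reached 1 CPM in 6 steers or more. A miRNA was called at a Benjamini-Hochberg adjusted p under 0.05. Fits took the 12 steers of a breed, the 36 steers with an RFI group, or all 60. log2 CPM used a prior count of 0.5. Ratios, shares, correlations and sires were tested by two-sided permutation, exact over all relabelings for 6 against 6 steers, otherwise with 100000 resamples, using Python 3.11.15 (matplotlib 3.10.9, pandas 2.3.3, scipy 1.17.1, numpy 2.4.6). Correlations over 60 steers were permuted within breeds, and 95% confidence intervals of mean differences use the pooled variance. All 60 files held counts of 1 steer, and 0 columns of other samples were present. Scripts were tested on simulated data with known changes.

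The members and the miRNA lists were chosen with earlier results of these data known. Named are the members, miRNAs sharing their seed or within 2 mismatches, the 5 miRNAs most like each member, up to 4 miRNAs of each list with the smallest p between breeds, and up to 5 markers of a cell type that moved with a member. Alternatives covered the test (likelihood ratio, DESeq2 1.42.0), normalization, filter, precursors, depth, choice of steers, sires, a block for the number in the titles, and omission of single steers. Leaving out the 3 libraries with a TMM factor under 0.8 was chosen after seeing the data, as were the settings for the relation with the library total. Mature sequences were taken from the study's table, and RefSeq names from the annotation of ARS-UCD2.0, of which no coordinates were used. Sequencing pools are not given in the labels. PCR reads are not independent molecules, so limits from a count of 0 cover counting error only.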

Additional observations from a re-analysis of the deposited data

Results flagged for a closer look

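Of 27 sets of values (3 measures in 9 groups), 7 held a highest steer whose gap to the next was large relative to the group's range, where chance flags about 1 in 20. For CPM of bta-miR-26a these were Angus without an RFI group, replicate 3 (63879 CPM), Charolais high-RFI, replicate 2 (71332 CPM), Charolais without an RFI group, replicate 7 (100539 CPM) and KC without an RFI group, replicate 2 (82381 CPM). For the ratio of bta-miR-26a to bta-miR-26b they were the same Charolais and KC steers, at 9.19, 12.7 and 8.70. No steer was flagged for bta-miR-26b. In 3 of the 4 libraries, the exception being the Charolais high-RFI one, the TMM factor was under 0.8.

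The Charolais steer with the ratio of 12.7 had 414088 averaged counts of bta-miR-26a and 32513 of bta-miR-26b, in a library of 6019099 counts. After TMM scaling, bta-miR-26a lay 4.6 within-breed SD above the breed mean and bta-miR-26b 0.16 SD above it. As shares of the counts, without TMM, bta-miR-26a was at 6.88%, the highest of the 60 steers, and bta-miR-26b at 0.540%, the lowest. Of all 443 miRNAs, bta-miR-10b was farthest from the breed mean, at 51368 CPM against a breed median of 2186, followed by bta-miR-10a and bta-miR-26a. The median Spearman correlation of this library with the other Charolais libraries was 0.924, within the range of 0.907 to 0.928 of that breed. What sets these libraries apart was not tested.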

How the results depend on the processing

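Over 250 refits of the members' fold changes or breed and interaction tests, none gave an adjusted p under 0.05, the smallest being 0.28. Of these, 18 changed sign, 1 for bta-miR-26a and 17 for bta-miR-26b, the largest at 0.16 in size, and the cause was not tested. bta-miR-26b in Angus low- against high-RFI steers turned to -0.0045 with DESeq2 and with RLE factors, -0.022 without a filter, -0.016 with at least 10 counts in every steer, -0.023 with precursors summed, -0.024 in 1 fit of 36 steers and -0.16 with sire as a block. Leaving out single steers gave -0.059 to 0.084 there. The Angus fit with sire as a block compared 1 low-RFI with 2 high-RFI steers of 1 sire, and 1 with 1 of another. bta-miR-26a in KC low- against high-RFI steers ranged from -0.090 to 0.0079 over 21 other settings, which include sire as a block and the omission of single steers. Over the 3 breeds, bta-miR-26a was at -0.019 with library totals only, without a change of sign. bta-miR-26b turned to 0.049 over the 3 breeds with library totals only, and to 0.033 in KC against Charolais with counts summed per sire.

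Counts of called miRNAs between RFI groups stayed at 0 except for 5 in Charolais with sire as a block (bta-miR-99b, bta-miR-100, bta-miR-99a-5p, bta-miR-125b and bta-miR-10172-3p), 1 in KC (bta-miR-190a) with the likelihood-ratio test, DESeq2 and 1 fit of 36 steers, and 1 interaction (bta-miR-2285u) with the likelihood-ratio test. These were named after their values were seen, and none was a member. With sire as a block, the Charolais fit sets 1 low-RFI steer against 4 high-RFI half-sibs. Its calls thus cannot tell the RFI group from that 1 steer. The library of that steer, Charolais low-RFI replicate 1, had the lowest total of its breed, 2237959 counts. In it 25 miRNAs lay over 3 within-breed SD from the breed mean. Leaving out single steers gave 0 to 0 in each breed. Between breeds, summing counts per sire gave 31 in all, 0 in Charolais against Angus, 21 in KC against Angus and 22 in KC against Charolais. Without pairs listed for 1 breed only the last 3 counts were 11, 30 and 48, and with 36 steers the first pair gave 2 and KC against Angus 26. Charolais against Angus also gave 14 with DESeq2, 10 with RLE factors and 11 with precursors summed, and KC against Charolais gave 44 with at least 10 counts in every steer. Numbers in the titles pair no animals, and same-numbered steers of different breeds deviated together no more than others (median r 0.0097 against -0.0034). With that number as a replicate block Charolais against Angus gave 3, and the other counts stayed within 1.5 times.

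The log2 ratio difference in Angus ranged from -0.11 to 0.015 on leaving out single steers, in Charolais from -0.27 to -0.12 and in KC from 0.0081 to 0.12. Between breeds it turned to -0.031 (Charolais against Angus), -0.067 (KC against Angus) and -0.036 (KC against Charolais) with 36 steers, to -0.022 in the first without the 3 libraries and to -0.042 in the last with 1 mean per sire. The family share of KC minus Charolais turned to 0.0952 points with 1 mean per sire. The correlation of the members fell to 0.19 with library totals only, and that of bta-miR-26b with depth turned to -0.25 with library totals only and -0.040 without the 3 libraries.

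Depth hardly limits either detected member, at 14503 counts or more per steer. Differences between 6 and 6 steers smaller than the intervals given, and any level of bta-miR-26c under its limits, were not detectable.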
